A study of Mus musculus with 6 samples.

Results

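The transcripts described here encode the hormones of the pituitary gland and proteins that regulate them, measured in whole brain of mice that lack the neural cell adhesion molecule NCAM and of wild-type mice. Of 10 genes listed (Gh, Prl, Pomc, Cga, Lhb, Fshb, Tshb, Ghrhr, Pou1f1 and Chga), 9 had a probe set that the platform annotation ties to that gene alone, 11 probe sets in all among the 12422 on the array. The genes were chosen by the signals of these same arrays, after an earlier analysis had shown pituitary transcripts to be high in 1 knockout animal. The array covers 8251 genes in this one-symbol sense. The members' knockout and wild-type signals are therefore given as a description, and nothing is supported with them. Pou1f1 had no such probe set.

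The study compared 3 male mice with a constitutive knockout of Ncam1 and 3 male wild-type mice of the same C57BL/6J background. Replicates 1 and 2 of either genotype were taken at an age of 2 months, and replicate 3 at 3 months. RNA from the total brain of each mouse was measured on 1 Affymetrix array in 1 colour. The labels name total brain after dissection, and they do not state whether the pituitary was taken with the brain.

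The anterior pituitary hangs below the hypothalamus and holds separate endocrine cell types, each with its hormone: somatotropes make growth hormone, lactotropes prolactin, thyrotropes thyrotropin, gonadotropes luteinising and follicle-stimulating hormone, and corticotropes the Pomc precursor of corticotropin. The transcription factor POU1F1 specifies somatotropes, lactotropes and thyrotropes, and loss of it in mice causes dwarfism. Hypothalamic peptides that reach the gland through portal vessels stimulate or inhibit release of each hormone. Some of these genes are also used in the brain itself, as Pomc is in neurons of the arcuate nucleus.

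The arrays were alike in overall level, with median signals between 119 and 131 and log2 signals that correlated at 0.967 or more for any pair. Ncam1, by its brightest probe set, read 276, 209 and 327 in knockout replicates 1, 2 and 3, against 1346, 1448 and 1216 in wild-type replicates 1, 2 and 3, so the labels and the targeted gene matched on every array. Brain markers were bright on all 6 arrays, with Snap25, a synaptic protein, between 7585 and 8508 and Mbp, a myelin protein, between 5592 and 6006 by its brighter probe set. Knockout replicate 2 stood apart in cerebellar markers. The summed signal of the 9 tested ones was 2367 there, against 8655 to 9936 on the other arrays. For the Gapdh control, the 3' signal over the 5' signal, a sign of RNA quality, was 0.826, 0.811 and 0.812 in knockout replicates 1, 2 and 3, against 0.779, 0.798 and 0.768 in wild-type replicates 1, 2 and 3. Its part in the values below was not tested.

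Gh and Prl, of the POU1F1 lineage, were far higher in knockout replicate 1 than on any other array. Tshb of that lineage was also highest there, but was too dim on the other arrays for its step to be ranked. Gh, which encodes growth hormone, read 11613, 355 and 409.7 in knockout replicates 1, 2 and 3, against 377, 222 and 284 in wild-type replicates 1, 2 and 3. Knockout replicate 1 lay 28.3-fold above the highest of the other 5 arrays and 32.7-fold above their median. Those 5 arrays lay within 1.84-fold of each other, and knockout replicate 2 was below wild-type replicate 1, so the groups overlapped.

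Prl, which encodes prolactin, read 2141, 131 and 161 in knockout replicates 1, 2 and 3, against 43.9, 44.9 and 109 in wild-type replicates 1, 2 and 3. Knockout replicate 1 exceeded the highest other array 13.3-fold. Every knockout animal was above every wild-type animal, as for 6.59% of all probe sets, and the 2-month-old wild-type animals were the lowest. Tshb, the subunit that gives thyrotropin its specificity, was dim, with 132, 41.1 and 17.0 in knockout against 23.6, 23.0 and 11.1 in wild-type replicates 1, 2 and 3. Its knockout replicate 1 signal was 3.21-fold above the highest other array, and the remaining knockout animals overlapped with the wild-type animals.

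Pomc showed the same high array with a smaller step than Gh and Prl. It read 704, 172 and 133 in knockout replicates 1, 2 and 3, against 34.4, 128 and 125 in wild-type replicates 1, 2 and 3. Knockout replicate 1 was 4.10-fold above the highest other array. Every knockout animal was above every wild-type animal, as for 6.59% of all probe sets. Wild-type replicate 1 was low, and the wild-type arrays alone spanned 3.70-fold, more than for any other member.

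Among the gonadotropin genes, knockout replicate 1 lay several-fold above the other arrays for the shared subunit, but not for the specific subunits. A fold depends on the signal of the other arrays, which was 335 to 393 for Lhb and dim for Fshb. These folds therefore do not compare amounts of transcript between the subunits. Cga encodes the alpha subunit common to luteinising hormone, follicle-stimulating hormone and thyrotropin, and was covered by 2 probe sets. The brighter one, of a less specific kind, read 524, 78.8 and 97.1 in knockout replicates 1, 2 and 3, against 96, 60.9 and 97.7 in wild-type replicates 1, 2 and 3. The dimmer one read 252, 32.1 and 53.3 against 24.1, 15.5 and 34.4. Both put knockout replicate 1 well above the rest, 5.36-fold and 4.73-fold over the highest other array, and with both the remaining knockout animals overlapped with the wild-type animals.

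Lhb, the specific subunit of luteinising hormone, read 486, 393 and 380.4 in knockout replicates 1, 2 and 3, against 335, 379 and 354 in wild-type replicates 1, 2 and 3. Its highest value was again that of knockout replicate 1, but only 1.24-fold above the next array, and the margin between knockout replicate 3 and wild-type replicate 2 was about 1 signal unit. Fshb, the specific subunit of follicle-stimulating hormone, was dim, at 60.04, 27.3 and 43.0 in knockout against 36.5, 22.8 and 44.2 in wild-type replicates 1, 2 and 3. Here knockout replicate 1 was 1.36-fold above the highest other array and the groups overlapped.

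The receptor and the granule protein did not share the step in fold. A given rise makes a smaller fold where the other arrays read higher, as they did for Chga, at 645 to 719 by its brighter probe set. Ghrhr, the receptor through which hypothalamic growth hormone releasing hormone acts on somatotropes, read 155, 119 and 159.7 in knockout replicates 1, 2 and 3, against 109, 104 and 128 in wild-type replicates 1, 2 and 3. Knockout replicate 3, not replicate 1, was the highest, and the groups overlapped. Chga, chromogranin A of secretory granules in endocrine cells and neurons, read 651, 677 and 645 in knockout against 671, 719 and 694 in wild-type replicates 1, 2 and 3 by its brighter probe set, with knockout replicate 1 0.904 times the highest array. Its less specific probe set read 302, 348 and 301 against 306, 335 and 282. The Chga signals of the 2 groups overlapped with both probe sets.

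**Figure D1:**
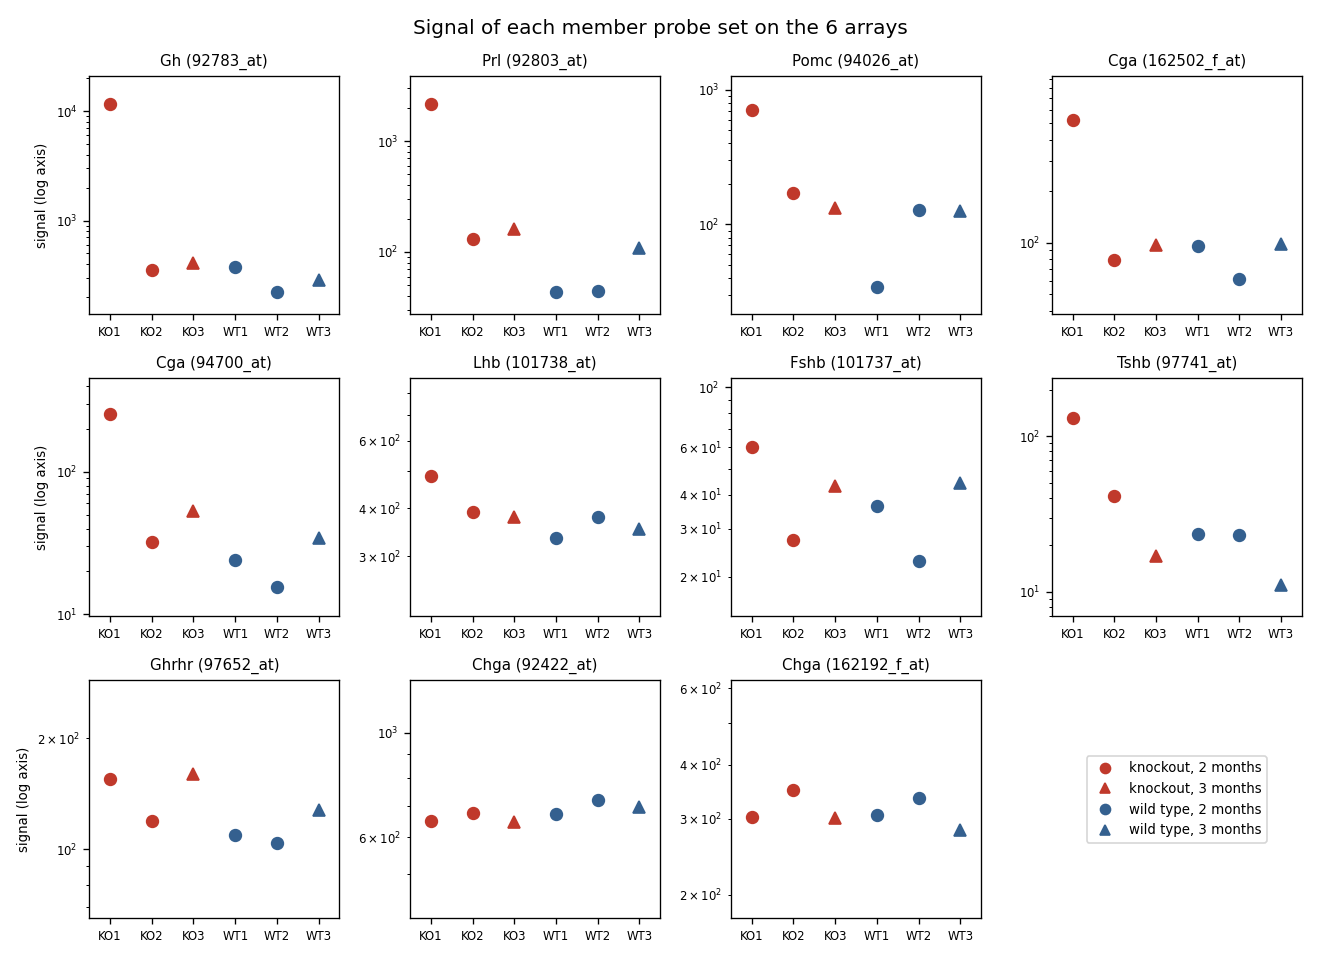
Signal of each of the 11 probe sets (vertical log axis, one panel per probe set, axes not shared) on the 6 arrays along the horizontal axis, knockout replicates (KO1 to KO3, red) left of wild-type replicates (WT1 to WT3, blue), circles for animals of 2 months and triangles for 3 months. Gh, Prl, Pomc, Cga and Tshb have 1 point, knockout replicate 1, far above the other 5, whereas Ghrhr and Chga do not.

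Set side by side, knockout replicate 1 was the highest array for all 8 hormone probe sets and for none of the 3 probe sets of Ghrhr and Chga. Over all 12422 probe sets it was the highest array for 16.8%. It exceeded each other array more than 4-fold for 5 member probe sets, beside 0.0805% of all probe sets, and more than 2-fold for 6, beside 0.588%. These shares describe the pattern the genes were listed for and are no test of it. Levels cannot be compared between probe sets of different genes, so only folds are set side by side. The same rise gives a smaller fold where the other arrays read higher. Among probe sets bright enough to be tested, knockout replicate 1 stood at 32.7 times the median of the other 5 arrays for Gh and at 19.7 times for Prl. Pomc at 5.52 and the brighter Cga probe set at 5.46 were close to each other, and Ghrhr at 1.30 and Lhb at 1.28 were too. Chga was at 0.961 and 0.988. Tshb, Fshb and the dimmer Cga probe set were too dim on the other arrays for their folds to be put in this order. In whole-tissue RNA, more cells of a type and more RNA per cell cannot be told apart.

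Probe sets bright enough to be tested between the genotypes were those whose mean log2(signal + 16) reached the 40th percentile, 7453 in all. Of the members, 8 probe sets of 7 genes passed this limit, and the same 8 passed it when knockout replicate 1 was left out. Tshb, Fshb and the dimmer Cga probe set did not pass. Among the 7453, knockout replicate 1 exceeded every other array more than 2-fold for 4 probe sets (0.0537%), and these were Gh, Prl, Cga and Pomc. The next probe set in that order was 1.76-fold above the highest other array. The same criterion was met by 2 and 1 probe sets on knockout replicates 2 and 3, against 4, 0 and 2 on wild-type replicates 1, 2 and 3, so the number of such probe sets did not set knockout replicate 1 apart.

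**Figure D2:**
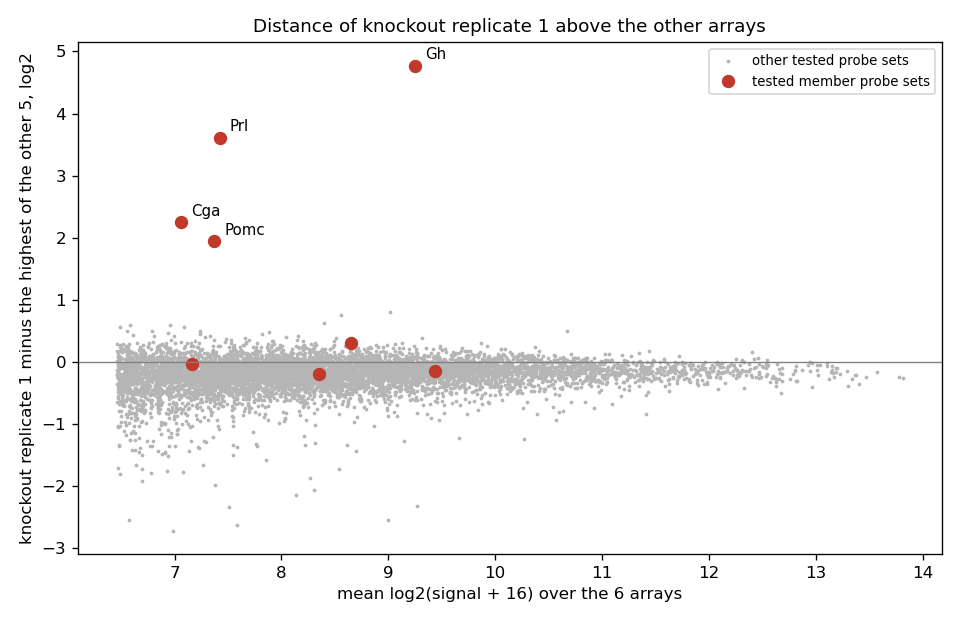
Each point is 1 of the 7453 tested probe sets, with its mean log2(signal + 16) over the 6 arrays on the horizontal axis and the log2 value of knockout replicate 1 minus the highest of the other 5 arrays on the vertical axis. Red points are the 8 tested member probe sets, of which Gh, Prl, Cga and Pomc lie between 1.94 and 4.77 while all other tested probe sets lie below 1.

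Genes outside the list that came nearest to this pattern were found by the same distance between knockout replicate 1 and the highest other array. Among tested probe sets of 1 gene the 10 largest were Itih3, Emc6, Cd151, Cldn11, Hoxd8, Sema4b, Mettl18, Afg3l1, Nnat and Kcna3, with log2 distances between 0.80 for Itih3 and 0.49 for Kcna3. Their Pearson correlations with the mean profile of Gh, Prl, Pomc and Cga over the 6 arrays ran from 0.870 for Itih3 to 0.978 for Emc6, which follows from 1 high array. Emc6, a subunit of a membrane protein insertion complex, read 653 in knockout replicate 1 against 271 to 379.7 on the other arrays. Nnat, neuronatin, read 2434 against 1302 to 1721. In the opposite direction the 5 largest distances were those of Prss32 (1.62), Zfp213 (1.07), Snw1 (1.06), Dnajb5 (0.99) and Sec23ip (0.92). Prss32 read 39.9 in knockout replicate 1 against 156 to 328 elsewhere. None of these 15 genes showed a step of the size seen for Gh or Prl. The downward distance of Prss32, 1.62, came near the upward 1.94 of Pomc.

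Group differences of every hormone probe set were smaller without the high array, to differing degrees. With all arrays, the knockout minus wild-type difference on the log2(signal + 16) scale, which understates changes of dim genes, was 2.32 for Prl, 2.01 for Gh, 1.43 for Pomc, 1.27 and 0.85 for the dimmer and the brighter Cga probe set and 0.91 for Tshb. Ghrhr had 0.30, Lhb 0.22, Fshb 0.22, and Chga -0.08 and 0.04. The median over the 11 probe sets was 0.85, beside 0.02 over all 12422. Without knockout replicate 1 that median was 0.25, beside 0.01 over all probe sets.

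Prl kept the largest difference without knockout replicate 1, at 1.07, followed by Pomc at 0.73, the dimmer Cga probe set at 0.53 and Gh at 0.39. The brighter Cga probe set was close to 0 at 0.06 and Fshb was at 0.03. Tshb had 0.32, Ghrhr 0.25, Lhb 0.12 and Chga -0.07 and 0.07. Ghrhr and Chga moved by less than their standard errors. Other single arrays mattered too. Without wild-type replicate 1, its lowest array, Pomc had 0.93, and without wild-type replicate 2 Fshb had 0.04. Without knockout replicate 2 the brighter Cga probe set had 1.31 and Fshb 0.43, without knockout replicate 3 Tshb had 1.404, and without wild-type replicate 3 Fshb had 0.36. The less specific Chga probe set turned to -0.02 without knockout replicate 2 and also without wild-type replicate 3. Knockout replicates 2 and 3 both lay above every wild-type animal for 3 of the 11 probe sets (Prl, Pomc and Lhb), beside 11% of all probe sets and 10.4% of those tested. All 3 knockout animals did so for the same 3, beside 6.59% of all and 6.08% of those tested. The knockout mean was the higher one for 10 of the 11, with or without knockout replicate 1, beside 53.8% of all probe sets, and nothing is read from these counts because the genes were listed on the same contrast. Knockout replicate 2, whose cerebellar markers were low, was above knockout replicate 3 for Pomc, Lhb, Tshb and both Chga probe sets and below it for Gh, Prl, Cga, Fshb and Ghrhr. The part of the missing cerebellar signal in these values was not tested.

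In the fit across all 7453 probe sets (limma, Benjamini-Hochberg adjustment), 0 of the 8 tested member probe sets passed at an adjusted p under 0.05, beside 0.0268% of all tested. At an unadjusted p under 0.05 there were 2, Prl and Pomc, beside 6.94% of all tested. Standard errors were large where 1 array dominated, 1.10 for Gh, 0.87 for Prl and 0.59 for Pomc, against 0.08 for the brighter Chga probe set and a median of 0.12. Without knockout replicate 1 the standard errors were 0.20, 0.33 and 0.43 for Gh, Prl and Pomc, and again 0 members passed, beside 0.0134% of all tested. At an unadjusted p under 0.05 there was 1, Prl, beside 5.64%. These counts describe the contrast the genes were listed on.

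**Figure D3:**
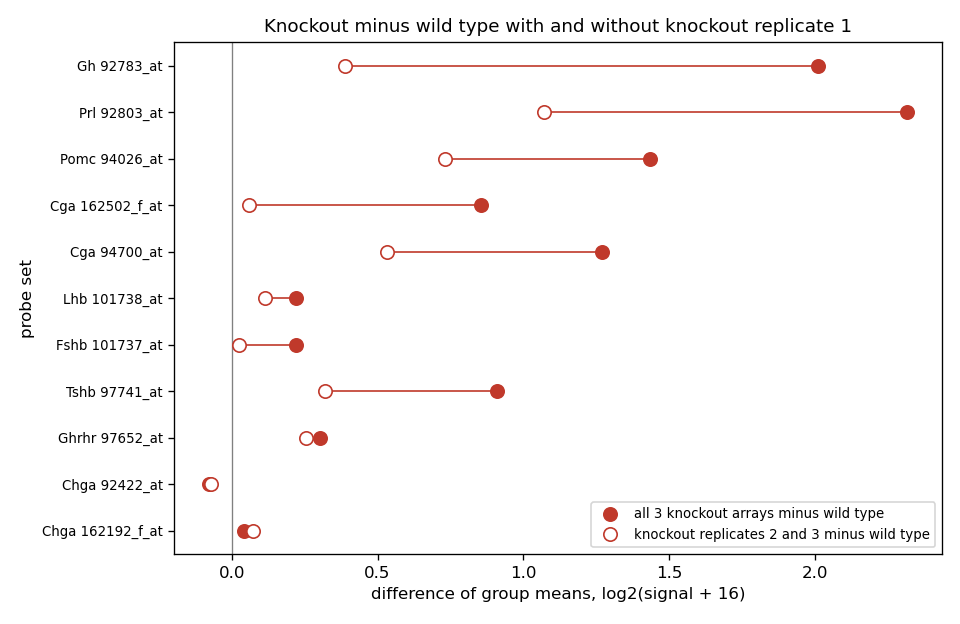
Difference of group means, knockout minus wild type, in log2(signal + 16) on the horizontal axis for each of the 11 probe sets, with all 3 knockout arrays (filled) and with knockout replicates 2 and 3 only (open). Gh stands at 2.01 with and at 0.39 without knockout replicate 1, and the brighter Cga probe set at 0.85 and 0.06, while Ghrhr and Chga move by less than their standard errors.

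For 4 of the hormones the bases before the RefSeq transcription start are shown, since Prl, Pomc and Cga shared 1 high array while Lhb, a hormone gene of the same gland, stayed within 1.28-fold of the median. Of the 10 listed genes 8 had an entry in the RefSeq promoter table (build GRCm38.p6). Each line gives the 250 bases before the start, 5′ to 3′ on the gene's strand. They lie on the plus strand at chr13:27057320-27057569 for Prl, chr12:3954695-3954944 for Pomc, chr4:34893529-34893778 for Cga and chr7:45420696-45420945 for Lhb. Capitals mark matches on either strand to TATNCAT (the core bound by POU1F1), TGACCTT (a half-site of NR5A1, a gonadotrope transcription factor), TAATCC (the core bound by PITX factors) and TATAAA (the TATA box).
Prl: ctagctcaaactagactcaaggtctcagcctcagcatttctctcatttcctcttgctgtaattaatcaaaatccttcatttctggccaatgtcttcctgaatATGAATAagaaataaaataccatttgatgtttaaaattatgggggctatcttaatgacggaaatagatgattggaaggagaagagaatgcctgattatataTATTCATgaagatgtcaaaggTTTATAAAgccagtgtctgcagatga
Pomc: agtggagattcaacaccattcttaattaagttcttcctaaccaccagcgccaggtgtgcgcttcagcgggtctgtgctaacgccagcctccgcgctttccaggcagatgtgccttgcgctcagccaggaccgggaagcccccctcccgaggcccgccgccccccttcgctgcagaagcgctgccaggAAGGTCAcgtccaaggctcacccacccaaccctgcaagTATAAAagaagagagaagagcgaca
Cga: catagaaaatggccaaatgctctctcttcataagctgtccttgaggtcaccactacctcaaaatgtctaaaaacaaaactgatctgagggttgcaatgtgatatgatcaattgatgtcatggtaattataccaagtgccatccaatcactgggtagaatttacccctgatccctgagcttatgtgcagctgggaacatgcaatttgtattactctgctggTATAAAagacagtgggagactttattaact
Lhb: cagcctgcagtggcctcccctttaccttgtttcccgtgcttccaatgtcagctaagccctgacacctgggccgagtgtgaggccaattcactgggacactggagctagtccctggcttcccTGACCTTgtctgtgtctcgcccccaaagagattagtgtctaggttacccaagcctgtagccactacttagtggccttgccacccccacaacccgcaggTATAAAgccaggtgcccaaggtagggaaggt
The POU1F1 core occurred at 2 places in the Prl window, 148 and 47 bases before the start, and in 7.92% of the 32851 windows of that length in the table. It was in none of the windows of Pomc, Cga, Lhb, Fshb, Tshb and Chga, although Tshb belongs to the POU1F1 lineage. The NR5A1 half-site occurred once in Lhb and once in Pomc, and in 4.08% of all windows. A TATA box began 24 to 31 bases before the start in all 4, where 12.4% of all windows held one anywhere, and in Prl a second match on the other strand overlapped it. The PITX core, present in 6.25% of all windows, had no exact match in any of the 4. A match is a run of letters and not a known binding site in these brains, and its absence here concerns these windows only. Variants of these letters were not searched for, so a window without a match may still hold a site for the factor.

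The genes were not chosen by age, but knockout replicate 1, in which they had been seen to be high, enters the age contrast. The fit with all arrays is therefore not independent of the choice of genes. With genotype as a covariate, 0 of the 8 tested member probe sets passed the test of 3-month-old against 2-month-old animals (limma, adjusted p 0.551 to 0.927), beside 0.0268% of all tested, and 0 had an unadjusted p under 0.05, beside 12.4%. Since knockout replicate 1 was 2 months old, the differences carried its values, with -1.16 ± 1.17 (SE) for Gh on the log2 scale. Without it Gh had 0.07 ± 0.21, and Prl had the lowest adjusted p, with a difference of 0.71 ± 0.22 (limma, adjusted p = 0.347). It was the 1 member with an unadjusted p under 0.05 in that fit, beside 12.7% of all tested. Prl read 161 and 109 in the 3-month-old knockout and wild-type animals, against 131 in the 2-month-old knockout animal that was left and 43.9 and 44.9 in the 2-month-old wild-type animals. Ghrhr had 0.29 ± 0.15 without knockout replicate 1, and Chga -0.03 ± 0.08 by its brighter probe set. The Prl difference did not pass the test after adjustment over all tested probe sets. Only 2 animals were 3 months old, and how large a difference this contrast could detect was not tested.

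None of the other pituitary axis genes tested passed the test between the genotypes across all probe sets. They came from 6 lists of 98 genes, of which 78 had a probe set of their own and 49 were tested, 1 probe set per gene. In limma 0 of the 49 were called, beside 0.0268% of all tested probe sets. At an unadjusted p under 0.05, 1 was higher and 3 were lower, beside 6.94%. The mean was higher in knockout brains for 31 genes and lower for 18, a share of 63.3% higher beside 50.4% of all tested probe sets, with a median log2 difference of 0.02, beside 0.00 over all tested probe sets. Knockout replicate 1 was the highest array for 3 of the 49, beside 15.7% of all tested.

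Pituitary transcription factors had 8 tested genes, 4 with higher and 4 with lower means and a median difference of 0.04. Sox2, a factor of progenitor cells, had 0.25 ± 0.12, Neurod1, used by corticotropes and cerebellar granule cells, -0.60 ± 0.40, and Egr1, an activator of Lhb, 0.33 ± 0.27, none of them past the test (limma, adjusted p 0.742 to 0.823). Neurod1 is a cerebellar marker too, and its lowest signal, 50.8, was that of knockout replicate 2. Pitx1, a factor of the whole anterior lobe and its oral precursor, read 192, 58.7 and 139.6 in knockout replicates 1, 2 and 3, against 123, 68.1 and 138 in wild-type replicates 1, 2 and 3. It was the 1 tested gene of this list at its highest in knockout replicate 1, at 1.37-fold over the next array. Lhx3, which acts early in the gland, was dim, and knockout replicate 1 at 32.2 lay inside the range of the other arrays, 11.05 to 40.05.

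Receptors for releasing and inhibiting factors had 5 tested genes with a median of -0.08, and knockout replicate 1 was the highest for none. Crhr1, the corticotropin releasing hormone receptor, had -0.15 ± 0.14, Sstr2, a somatostatin receptor, 0.17 ± 0.17, and Galr1, a galanin receptor, -0.18 ± 0.19. The thyrotropin and gonadotropin releasing hormone receptors were dim. Trhr read 10.9 in knockout replicate 1 against 8.66 to 65.6 on the other arrays, and both Gnrhr probe sets stayed under 10 everywhere.

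Hypothalamic releasing and inhibiting factors had 10 tested genes, 6 with higher and 4 with lower means and a median of 0.01. Adcyap1, a peptide that stimulates pituitary adenylate cyclase, had 0.14 ± 0.11, Tac2, the neurokinin B precursor, 0.13 ± 0.12, and Sst, somatostatin, which inhibits growth hormone release, -0.07 ± 0.09. Ghrh, the releasing hormone itself, was dim, at 49.5, 35.2 and 63.3 in knockout replicates 1, 2 and 3, against 41.3, 50.4 and 68.7 in wild-type replicates 1, 2 and 3. In knockout replicate 1 Ghrh lay inside the range of the other arrays.

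Prohormone processing and granule genes had 11 tested genes, 9 with higher and 2 with lower means and a median of 0.04. Pcsk1n, an inhibitor of prohormone convertase, had -0.23 ± 0.10, Scg2, a granin, 0.17 ± 0.09, and Sytl4, a granule docking protein, 0.34 ± 0.22. Sytl4 was the 1 tested gene of this list at its highest in knockout replicate 1, with 106 there. Receptors for pituitary hormones and their targets had 9 tested genes and a median of 0.06. Stat5a, which carries growth hormone and prolactin signals, read 355 ± 7.56 (SD, n = 3) in knockouts and 439 ± 18.9 in wild types, which is a difference of -0.30 ± 0.09 (limma, adjusted p = 0.548). Igf1r, the receptor of the growth factor that growth hormone induces, read 541 ± 39.97 (SD, n = 3) in knockouts and 436 ± 8.15 in wild types, a difference of 0.30 ± 0.09 (limma, adjusted p = 0.548). Neither passed the test.

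Mc5r, a melanocortin receptor, had 0.23 ± 0.14 and was the 1 tested gene of its list at its highest in knockout replicate 1, with 188. Feedback hormone receptors and related genes had 6 tested genes and a median of 0.03. Thra, the thyroid hormone receptor alpha, had -0.16 ± 0.06, Dio2, which makes active thyroid hormone in the brain, 0.26 ± 0.14, and Inhba, an activin subunit, 0.23 ± 0.14 (limma, adjusted p 0.719 to 0.767). Among direct growth hormone targets, Socs2 had 0.18 ± 0.11 and Igf1 -0.14 ± 0.10, and knockout replicate 1, with 171 and 943, was within the range of the other arrays for both.

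**Figure D4:**
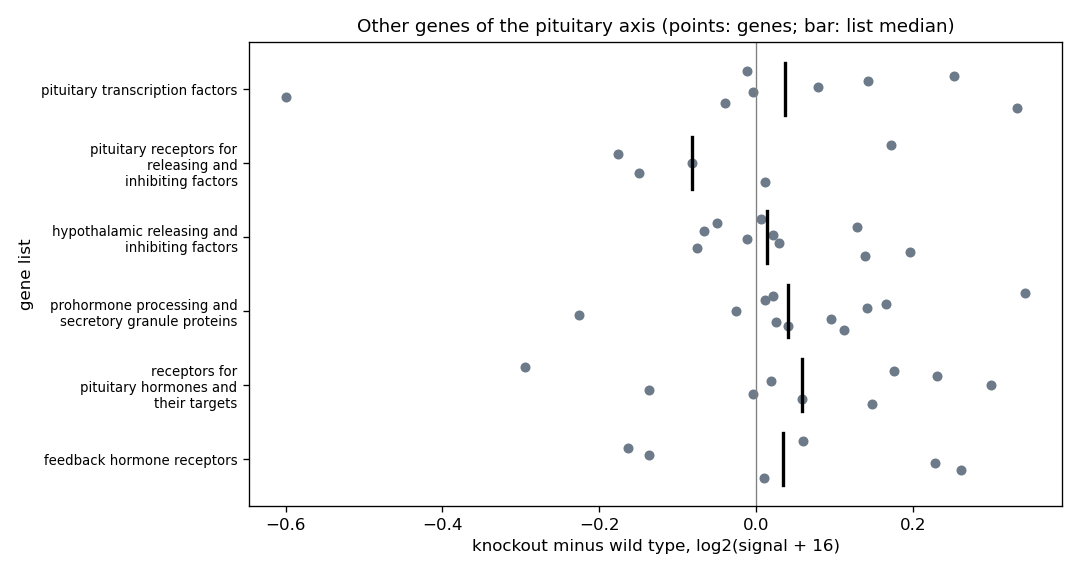
Knockout minus wild-type difference in log2(signal + 16) on the horizontal axis for each of the 49 tested genes of the 6 lists (points) with the median of each list (bar). The medians lie between -0.08 and 0.06 and 0 genes passed the test across all probe sets.

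Markers of tissue next to the brain were set beside the hormone values. For 8 lists of other tissues, the list median of each array relative to the wild-type mean lay farthest from 0 for the cerebellar list in knockout replicate 2, at -2.11, followed by the choroid plexus list on the same array at -0.43. The members' own median was 2.09, 0.17 and 0.25 in knockout replicates 1, 2 and 3, against 0.00, -0.11 and 0.15 in wild-type replicates 1, 2 and 3. Posterior lobe markers with 3 of 7 genes tested (Avp, Oxt and Gfap, all also expressed in brain) had a median of 0.25, 0.11 and -0.01 in knockout replicates 1, 2 and 3, and -0.08 to -0.04 in wild-type animals. Their summed signal reached 1828 in knockout replicate 1, where it was highest, and ran from 1636 to 1818 over the remaining arrays. Oxt, made by neurons whose axons end in the posterior lobe, read 691 in knockout replicate 1, inside the 669.6 to 766 of the other arrays. Its wild-type mean was 708. Avp read 338 there, above its wild-type mean of 283, and Gfap by its brighter probe set 799, above 674. Both also lay inside the range of the other arrays, 183 to 495 for Avp and 561 to 804 for Gfap.

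Pineal markers, of which 3 of 9 were tested, had medians of 0.26, 0.04 and 0.32 in knockout replicates 1, 2 and 3, while wild types had 0.04 to 0.23. Knockout replicate 1 was the highest array for 2 of these 3 genes, beside 15.7% of all tested probe sets, but its summed signal of 542 was inside the 421 to 645 of the other arrays. Crx, a factor of pineal and retinal cells, was 1 of these, with 139.7 there against 45.4 to 124 elsewhere. Choroid plexus, blood, meningeal and vascular, sensory ganglion and skeletal muscle markers had medians between -0.09 and 0.09 in knockout replicate 1, within the range of the other 5 arrays for each list. In that order, 3 of 9, 4 of 9, 8 of 11, 1 of 9 and 5 of 9 listed genes were tested. The sensory ganglion value is thus that of 1 gene, Pmp22. In limma 0 of the 36 marker genes tested were called, beside 0.0268% of all tested probe sets, and 3 had an unadjusted p under 0.05, beside 6.94%. The part of any other tissue in the hormone values was not tested.

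**Figure D5:**
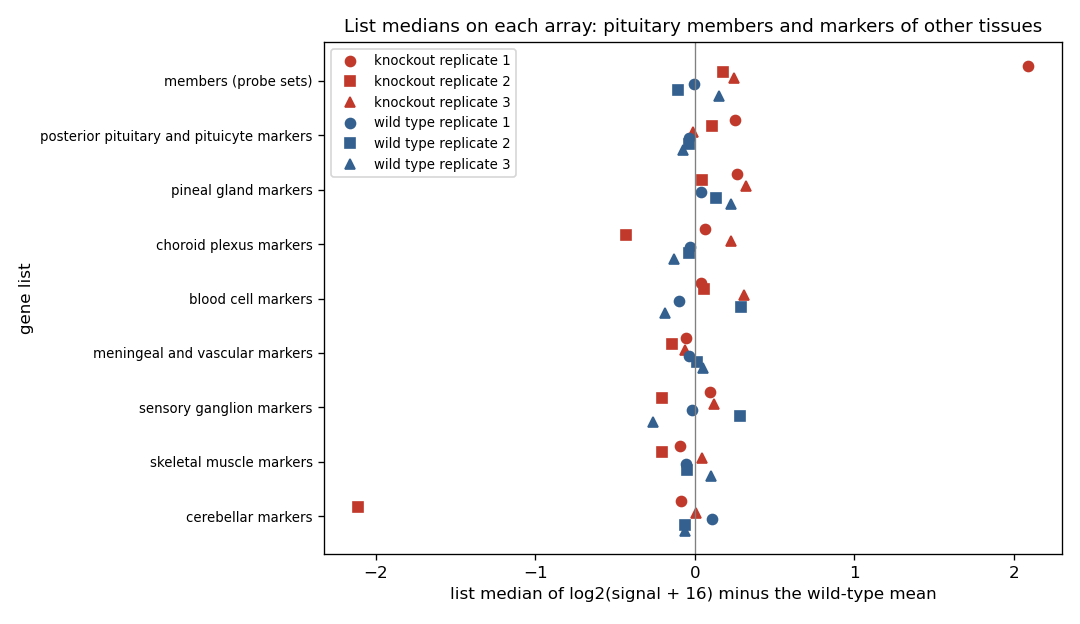
Median of log2(signal + 16) minus the wild-type mean (horizontal axis) over the 11 member probe sets and over the tested genes of 8 marker lists (rows), 1 symbol per array, knockout in red and wild type in blue. Knockout replicate 1 stands at 2.09 for the members and between -0.09 and 0.26 for the marker lists, and knockout replicate 2 stands at -2.11 for the cerebellar list.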

How the data were processed

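Total RNA of 6 mouse brains was extracted, labelled with biotin and hybridised to one-colour arrays, per the labels' protocols. The authors deposited linear signal intensities per probe set, and the submitters' processing notes name GCOS 1.4. How that software was set, and which algorithm it ran, those notes do not say. From the values, each array had been scaled to the same trimmed mean, 300.2 over the middle 96% of signals. No detection calls were used. The depth of an array is not a count, so the number of arrays, 3 per group, limits the precision.

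The 66 control entries were set aside, which left 12422 probe sets, 10833 of them with 1 gene symbol, 396 with several and 1193 with none. Probe sets with several symbols gave no gene names. Signals were transformed as log2(signal + 16), and the test took the probe sets whose mean reached the 40th percentile (6.46, equal to a signal of 72.2). It used limma 3.58.1 in R 4.3.3, fitted by lmFit, with two-sided moderated statistics from eBayes that followed an intensity trend. P-values were adjusted by Benjamini-Hochberg over all 7453 probe sets and called at 0.05. Wild type was subtracted from knockout. The age contrast had genotype as a covariate. The procedure was tested on simulated data.

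Members and gene lists were chosen with earlier results of these data known. Named genes are all members, the 10 and 5 tested genes with the largest distance of knockout replicate 1 above or below the other arrays, and the 3 genes with the lowest p of each of the 6 pituitary axis lists. Ncam1, Snap25, Mbp, Pitx1, Lhx3, Trhr, Gnrhr, Ghrh, Socs2, Igf1, Avp, Oxt, Gfap, Crx, Pam and Fgf3 fall outside this rule and were picked with their values in view. The alternatives were other normalisations, pseudocounts and filters, no intensity trend, array weights, a block for the replicate number, an age covariate and each array left out. Promoter sequences are from RefSeq. Figures were drawn with matplotlib 3.10.9.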

Additional observations from a re-analysis of the deposited data

How the results depend on the processing

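The comparison of knockout with wild type called 2 probe sets, neither of them a member. It called 1 after quantile normalisation, 1 after median centring, 1 without a filter, 1 without an intensity trend and 4 with array weights. Leaving out 1 array gave 1 to 3 calls, with 1 without knockout replicate 1, wild-type replicate 1 or wild-type replicate 2. The age contrast called 2, with 1 without a filter, 0 without an intensity trend, and 0 to 5 with 1 array left out, 5 without knockout replicate 3 and 0 without any 1 of the 3 wild-type animals. In these alternatives limma called 0 members in either contrast and 0 genes of the 6 lists. The median difference over the members, 0.85, lay between 0.25 (without knockout replicate 1) and 1.19 with 1 array left out, and between 0.51 (pseudocount 64) and 1.33 (array weights) otherwise. Knockout replicate 1 is the array this median rests on.

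Same-numbered animals share a number and nothing in the labels pairs them. The correlations of their deviations from the group means were 0.01, 0.15 and 0.20 for replicates 1, 2 and 3, and not every animal correlated best with its own number. With the replicate number as a block 2 probe sets were called and the members' median was 0.85.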

Other observations

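Some probe sets too dim to be tested had their highest signal in knockout replicate 1 as well. Pam, which amidates the ends of peptide hormones and is abundant in secretory granules, read 117, 42.1 and 45.1 in knockout replicates 1, 2 and 3, against 28.8, 3.82 and 14.1 in wild-type replicates 1, 2 and 3. Knockout replicate 1 was the highest array for Pam, as it was for 16.8% of all probe sets. It was 2.59-fold above the highest other array for Pam, and more than 2-fold above for 0.588% of all probe sets. Fgf3, a growth factor of embryonic tissues, had 70.6 there, against 8.27 to 16.7 elsewhere. Besides the members, 5 probe sets were more than 4-fold above every other array there, all dim, with knockout replicate 1 signals from 4.06 to 70.6.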
